A study of Mus musculus with 44 samples.

Results

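Glutathione S-transferases (GSTs), UDP-glucuronosyltransferases (UGTs) and cytosolic sulfotransferases (SULTs) were examined in 44 expression arrays of mice given 2-butoxyethanol (2BE) or vehicle. The genes were taken by name: every gene with a single annotated symbol that starts with Gst plus a class letter and a digit, Mgst, Ugt1, Ugt2, Ugt3 or Sult. This gave 46 of the 18193 genes with a probe set of their own, namely 20 cytosolic and mitochondrial GSTs, 3 microsomal GSTs, 10 UGTs and 13 SULTs. The naming rule uses no measured value, but this set of families was chosen with earlier results of these data known. No gene of the Ugt1 locus is among the 46, because its probe sets on this array carry several symbols.

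All animals were B6C3F1 mice, a hybrid laboratory strain, and the samples were a piece of liver lobe, a spleen section or marrow of the humerus, taken under ketamine and acepromazine anaesthesia. The liver at 4 h had 4 2BE and 3 vehicle arrays, the liver at 7 d had 5 2BE and 4 vehicle arrays, the spleen at 4 h had 4 arrays in each arm, and the spleen and the bone marrow at 7 d had 5 in each arm. Arms follow the sample titles. The treatment field, in contrast, reads reduced oxygen for samples titled 2BE and control for those titled vehicle. Age, sex, dose, route and whether arrays of 1 group come from separate mice are not given in the sources used here, so a p-value measures the spread between these samples, which may be technical.

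GSTs join the tripeptide glutathione to electrophilic compounds, and SULTs transfer sulfate from the donor PAPS. UGTs of the Ugt1 and Ugt2 families transfer glucuronic acid from UDP-glucuronate. Each of these steps makes a molecule more water-soluble. The liver carries most of this work, and several of its GST, UGT and SULT genes are known targets of the xenobiotic receptors CAR and PXR and of the antioxidant regulator Nrf2. 2BE is a glycol ether solvent whose acid metabolite, butoxyacetic acid, lyses rodent red cells.

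Promoters are shown for 5 genes whose values carry the spleen and marrow results below. Mgst3, Gstm5 and Gstp3 rose in the spleen and the marrow at 7 d, Gstm2 had the largest fall in the spleen at 7 d, and Gsta3 was the gene called in the spleen at 4 h. The sequences are from RefSeq (GRCm38.p6), 5′ to 3′ on the gene's strand, from 250 bases before to 50 bases after the annotated start. Capitals mark matches, on either strand, to TGACNNNGC, the core of the antioxidant response element bound by Nrf2, and to AGATAA and TGATAA, which are forms of the site of GATA factors. Mgst3 lies at chr1:167393792-167394091 (minus strand), Gstm5 at chr3:107895604-107895903 (plus), Gstp3 at chr19:4059398-4059697 (minus), Gstm2 at chr3:107986371-107986670 (minus) and Gsta3 at chr1:21240335-21240634 (plus).
Mgst3: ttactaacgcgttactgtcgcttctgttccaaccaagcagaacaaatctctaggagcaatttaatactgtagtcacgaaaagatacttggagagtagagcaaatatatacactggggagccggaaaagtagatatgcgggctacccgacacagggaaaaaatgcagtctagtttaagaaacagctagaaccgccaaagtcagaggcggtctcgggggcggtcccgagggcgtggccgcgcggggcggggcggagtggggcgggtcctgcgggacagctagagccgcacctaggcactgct
Gstm5: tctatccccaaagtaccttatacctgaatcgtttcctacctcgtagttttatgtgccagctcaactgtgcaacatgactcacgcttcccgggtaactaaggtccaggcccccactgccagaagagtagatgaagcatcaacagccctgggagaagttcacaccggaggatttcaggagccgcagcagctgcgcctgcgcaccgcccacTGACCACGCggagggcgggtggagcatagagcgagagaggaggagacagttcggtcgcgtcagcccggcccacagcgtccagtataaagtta
Gstp3: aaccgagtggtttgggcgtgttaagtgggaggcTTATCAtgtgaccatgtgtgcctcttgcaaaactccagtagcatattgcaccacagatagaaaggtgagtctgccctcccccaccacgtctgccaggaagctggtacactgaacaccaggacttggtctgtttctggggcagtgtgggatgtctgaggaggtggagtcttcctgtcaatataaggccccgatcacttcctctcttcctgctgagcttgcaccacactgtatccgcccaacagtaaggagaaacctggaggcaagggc
Gstm2: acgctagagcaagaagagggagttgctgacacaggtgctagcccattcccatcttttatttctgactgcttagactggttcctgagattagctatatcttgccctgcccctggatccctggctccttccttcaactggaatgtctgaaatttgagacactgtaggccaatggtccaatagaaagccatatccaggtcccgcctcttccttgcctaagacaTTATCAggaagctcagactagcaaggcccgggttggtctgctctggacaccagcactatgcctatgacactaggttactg
Gsta3: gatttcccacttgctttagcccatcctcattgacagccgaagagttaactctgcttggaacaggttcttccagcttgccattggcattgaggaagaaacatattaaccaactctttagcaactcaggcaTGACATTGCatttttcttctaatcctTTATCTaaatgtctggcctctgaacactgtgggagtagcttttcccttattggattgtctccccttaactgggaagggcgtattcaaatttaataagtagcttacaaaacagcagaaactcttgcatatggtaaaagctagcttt
Gstm5 holds TGACNNNGC 42 bases before its start and Gsta3 holds it 121 bases before, with AGATAA on the opposite strand 95 bases before. TGATAA lies on the opposite strand 217 bases before the start of Gstp3 and 30 bases before that of Gstm2, and none of these letters is in the Mgst3 window. TGACNNNGC occurs in 12.4% of the 32851 promoters of this length and in 4 of the 41 conjugation genes with a promoter in the table. AGATAA occurs in 11.2% of all promoters and in 8 of the 41, and TGATAA in 9.1% and in 8 of the 41. These motifs do not overlap in the windows shown, and a match is a description of letters, not a binding site.

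The values are intensities, in arbitrary units, that the authors deposited after RMA normalization. The median intensity of all probe sets ran from 41.2 to 42.5 in the liver at 4 h and from 50.1 to 52.3 in the liver at 7 d. It ran from 87.0 to 89.2 in the spleen at 4 h, from 86.2 to 89.6 in the marrow and from 109.4 to 111.7 in the spleen at 7 d. These 5 sets may have been normalized separately, so levels were compared within a set. Differences are 2BE minus vehicle on log2(intensity + 1), with limma's SE, and a gene was called changed at a Benjamini-Hochberg adjusted p under 0.05 over all 18193 genes. Hepatocyte markers summed to 170036 to 210146 on the 16 liver arrays and to 186 to 485 on the spleen and marrow arrays, where all 7 measured ones lay below the array median.

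Single arrays stood apart, as seen after the values were known. The third vehicle liver at 4 h was the lowest of the 7 arrays for 19 of the 46 genes (41.3%), against 17.3% of all genes. Its neutrophil markers summed to 1078, against 238 to 471 on the 4 2BE livers and 246 and 295 on the other vehicle livers. The third vehicle spleen at 4 h had the highest erythroid sum, 42927, and the highest neutrophil sum, 82101. The fifth 2BE spleen at 7 d lay nearest to the vehicle mean for 17 of the 22 conjugation genes called there (77.3%), against 64.6% of all genes called. Where leaving out one of these arrays moved a conjugation gene's difference given below by over 1.5 times, the value without it is given too.

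**Figure D1:**
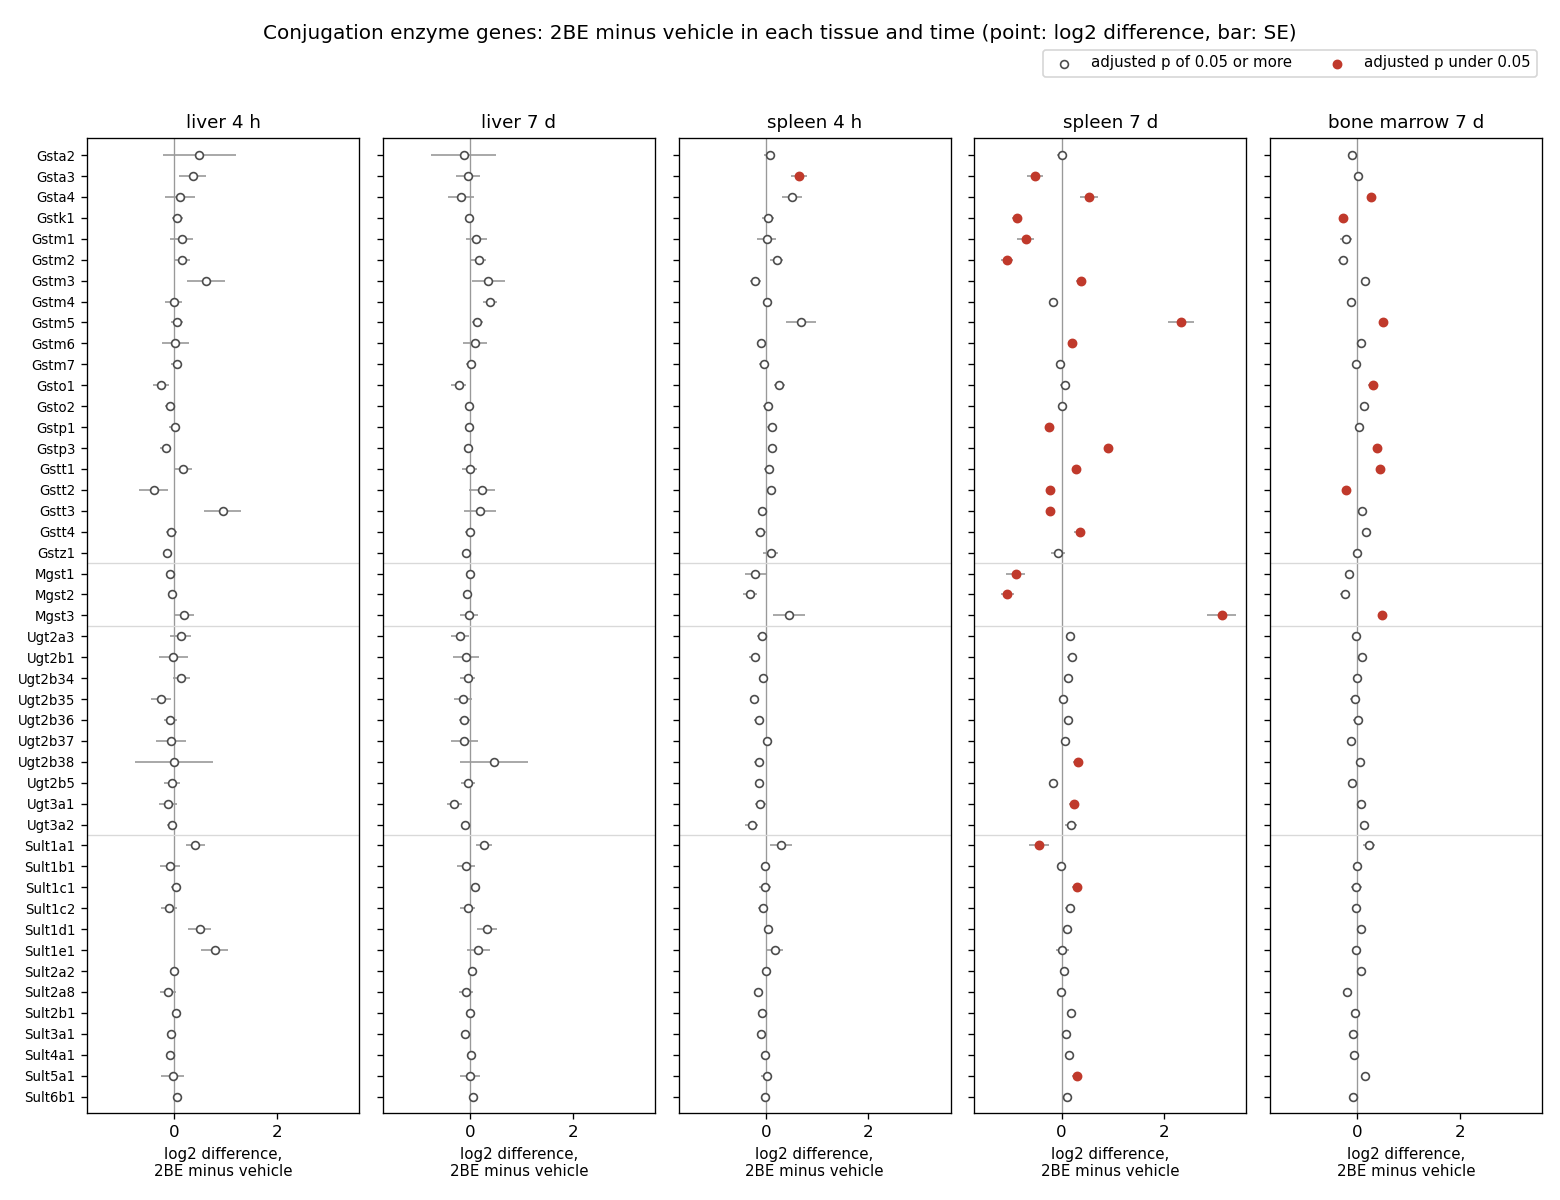
Log2 difference in intensity (2BE minus vehicle, horizontal axes) of the 46 conjugation enzyme genes (rows) in each tissue and time, with bars of 1 SE and filled points for an adjusted p under 0.05. The liver panels hold no filled point, the spleen at 7 d holds 22, with Mgst3 at 3.12 and Gstm5 at 2.33 farthest to the right, and the marrow holds 8.

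Among the 46 genes, those with the highest mean vehicle log2 intensity over both liver times were Gstp1, the pi-class GST, at 14.71, Mgst1, a microsomal GST that also reduces lipid hydroperoxides, at 14.62, Ugt2b5 at 13.69, Ugt2b36 at 13.67 and Gstm1, a mu-class GST, at 13.35. In the spleen they were Gstp1 at 12.26, Mgst1 at 10.70, Mgst3 at 10.34, Gsto1 at 10.08 and Gstm5 at 9.12. In the marrow they were Mgst1 at 12.47, Mgst3 at 12.01, Gstp1 at 11.96, Gstm5 at 10.35 and Gstm1 at 10.18. No UGT or SULT gene of the 46 was among the leading 5 in the spleen or the marrow. The Ugt1a probe sets, which stand outside the 46, had mean intensities of 676.5, 1311.1 and 477.6 in vehicle marrow. Gstm1 ran from 1099 to 1249 on the same arrays. Probes differ in brightness, so these orders describe signal and not RNA amount. In the liver 36 of the 46 genes had a mean above the median of all probe sets in at least 1 arm, at both times. In the spleen 19 did, and in the marrow 17.

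In the liver no conjugation gene was called changed, at 4 h or at 7 d. At 4 h 3.24% of all genes were called higher and 1.27% lower, and limma gave 5 of the 46 genes an unadjusted p under 0.05. At 7 d 0.506% of all genes were called higher and 0.242% lower, and 1 of the 46 had an unadjusted p under 0.05. The median log2 difference of the 46 was -0.002 at 4 h and -0.014 at 7 d, against -0.017 and -0.001 over all genes. The 4 h median moved with single arrays: without the third vehicle array it was -0.152, with 33 of the 46 differences below 0, while that of all genes was -0.019. With any other single array left out it lay between -0.033 and 0.078. The 95% interval lay within 1 log2 unit on either side of 0 for 40 genes at 4 h and 43 at 7 d, and within 0.5 for 26 and 27. A change of 1 log2 unit was thus outside the interval for most of these genes, and smaller changes could not be told from 0 in many of them.

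Among the GSTs of the liver at 4 h, the theta-class gene Gstt3 had the largest difference. Its intensity was 334, 342, 685 and 463 on the 2BE arrays, against 342, 315 and 107 on the vehicle arrays. The third vehicle array was the low one, and the arms overlapped through the other vehicle arrays. The difference was 0.95 ± 0.36 (adjusted p = 0.168), and without the third vehicle array it was 0.41 (adjusted p = 0.558). Gstm3, a mu-class gene, had 1618, 1311, 2212 and 2148 with 2BE, against 1153, 2829.5 and 479 with vehicle. The vehicle arrays spread more widely than the 2BE arrays, on both sides of them. Its difference was 0.62 ± 0.37 (adjusted p = 0.43), which became 1.26 (adjusted p = 0.0179) without the second vehicle array and -0.02 (adjusted p = 0.986) without the third.

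Gsta2, an alpha-class GST, showed the same array most strongly. It had 735, 934, 617 and 263 with 2BE, against 787, 1484 and 59.2 with vehicle. The third vehicle array lay 18-fold below the geometric mean of the other vehicle arrays, and the arms overlapped. The difference was 0.49 ± 0.72 (adjusted p = 0.805) with that array and -0.90 (adjusted p = 0.203) without it. The same array lay 3.36-fold below the other vehicle arrays for Gsta4, which conjugates the lipid peroxidation product 4-hydroxynonenal, 2.99-fold for Gsta3, 2.39-fold for Gstm1 and 1.32-fold for Gstp1. For Gstk1, the kappa-class GST of mitochondria and peroxisomes, it was 1.08-fold below, and for Mgst1 and Gstz1 1.02-fold. Leaving it out brought no conjugation gene below an adjusted p of 0.05. The nearest values were Ugt2b36 at -0.29 (adjusted p = 0.0556), Sult2a8 at -0.40 (adjusted p = 0.0614) and Gsta4 at -0.47 (adjusted p = 0.0697).

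2 GST genes had arms that did not overlap, both lower with 2BE. Among all genes 4.49% were lower and 6.58% higher without overlap, whatever the size of the difference. Gstz1, the maleylacetoacetate isomerase of tyrosine breakdown, had 5777, 5086, 5849 and 5365 with 2BE, against 6015, 6296 and 6051 with vehicle. All 2BE arrays lay below all vehicle arrays, with a difference of -0.15 ± 0.06 (adjusted p = 0.18). Mgst1 had 26288, 26721, 26305 and 24208 with 2BE, against 26839, 28078 and 27002 with vehicle, again without overlap. Its difference was -0.08 ± 0.05 (adjusted p = 0.492). Gstt2, another theta-class gene, differed by -0.41 ± 0.29 (adjusted p = 0.521), with overlapping arms, and by -0.82 (adjusted p = 0.083) without the third vehicle array.

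**Figure D2:**
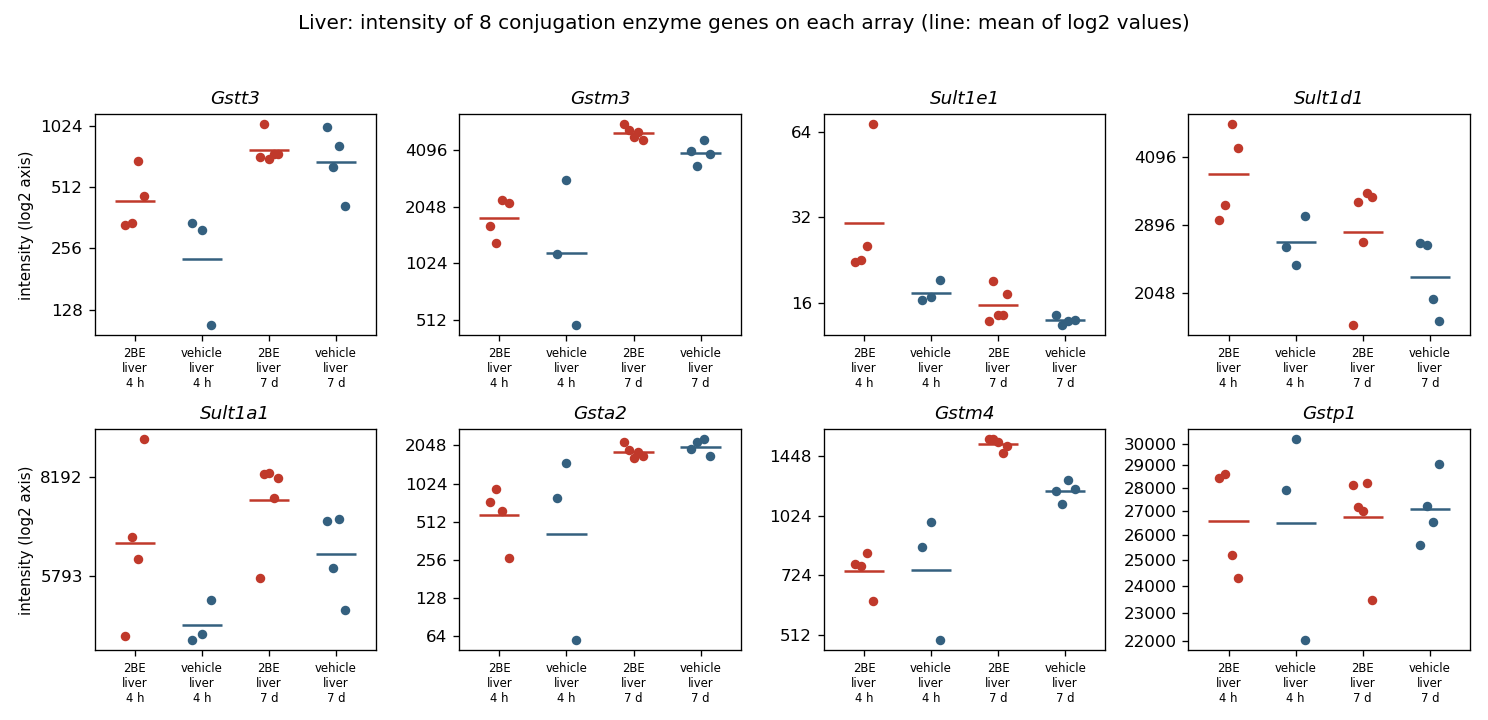
Intensity (log2 axis) of 8 conjugation enzyme genes on each liver array, 2BE left of vehicle at 4 h and at 7 d, with lines at the mean of log2 values. One vehicle array is the lowest of the 4 h points for Gstt3 (107), Gstm3 (479), Gsta2 (59.2), Gstm4 (497) and Gstp1 (22030.3), one 2BE array stands above the others for Sult1e1 (68.0 against 22.3 to 25.4), and the Gstm4 arms do not overlap at 7 d.

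Among the SULTs of the liver at 4 h, Sult1e1, the oestrogen sulfotransferase, was the only one of the 46 genes whose arms did not overlap with a log2 difference of at least 0.5. By that rule 1.80% of all genes were higher and 0.885% lower. Its intensity was 22.3, 22.6, 25.4 and 68.0 with 2BE, against 16.3, 16.7 and 19.2 with vehicle. All 4 2BE arrays lay above all vehicle arrays, and the fourth stood far above the other 2BE arrays. The difference was 0.79 ± 0.27 (adjusted p = 0.111), and without the fourth 2BE array it was 0.41 with an adjusted p of 0.0497. All these values but the 68.0 lie below the array median.

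Sult1d1, which sulfates catecholamines in mice, had 2965, 3202, 4822 and 4275 with 2BE, against 2594, 2368 and 3027 with vehicle. 2BE replicates 3 and 4 were the highest, and the lowest 2BE array lay just under the highest vehicle array. The difference was 0.50 ± 0.22 (adjusted p = 0.251), and a second probe set of the gene gave 0.66. Sult1a1, the phenol sulfotransferase, had 4701, 6642, 6153 and 9353 with 2BE, against 4632, 4731 and 5342 with vehicle. One 2BE array fell within the vehicle range, and the fourth was the highest of all. The difference was 0.41 ± 0.18 (adjusted p = 0.246), and without 2BE replicate 4 it was 0.24 (adjusted p = 0.545). The other 10 SULT genes lay between -0.13 and 0.06 on the log2 scale, and between -0.40 and 0.07 without the third vehicle array. At 7 d Sult1d1 differed by 0.33 ± 0.20 (adjusted p = 0.585) and Sult1a1 by 0.27 ± 0.16 (adjusted p = 0.582), both with overlapping arms.

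The UGTs of the liver spanned a narrower range at 4 h than the GSTs or the SULTs. At 4 h their 10 log2 differences lay between -0.26 and 0.14, with a median of -0.05, and without the third vehicle array between -0.45 and -0.06. Ugt2b5 had 15198, 13418, 12699 and 9170.1 with 2BE, against 14668, 15154 and 9416 with vehicle, and Ugt2b36 had 12227, 12013, 12227 and 9908 with 2BE, against 14217, 14124 and 8959 with vehicle. Both pairs of arms overlapped, with differences of -0.04 ± 0.16 and -0.07 ± 0.12 (adjusted p = 0.938 and 0.831). Without the third vehicle array, the lowest of its arm for both, the differences were -0.26 (adjusted p = 0.376) and -0.29 (adjusted p = 0.0556). Ugt2b38 varied widely within both arms, with 754, 874, 164 and 197 under 2BE, against 404, 593 and 235 under vehicle, and its SE of 0.76 was the largest of the 46. It differed by -0.00 with all arrays and by -0.36 (adjusted p = 0.904) without the third vehicle array. At 7 d Ugt2b36 had 13149, 13407, 12989, 13014 and 12372 with 2BE, against 13738, 14531, 13572 and 14182 with vehicle. The 2BE arrays all lay below the vehicle arrays, by -0.11 ± 0.11 (adjusted p = 0.789). Ugt2a3 also had arms without overlap at 7 d, with a difference of -0.20 ± 0.18 (adjusted p = 0.747).

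At 7 d the largest difference among the liver GSTs was that of Gstm4, a mu-class gene. It had 1595, 1594, 1572, 1478 and 1531 on the 2BE arrays, against 1183, 1098, 1263 and 1198 on the vehicle arrays. All 5 2BE arrays lay above all 4 vehicle arrays, by more than the spread within either arm. The difference was 0.39 ± 0.14 (adjusted p = 0.265) when the spread was estimated over all liver arrays, and the adjusted p was 0.0119 when the 7 d arrays alone were fitted. Its neighbour Gstm3 had 5593, 5224, 4819.6, 5104 and 4636 with 2BE, against 4062, 3351, 4597 and 3898 with vehicle. These arms did not overlap either, and the difference was 0.36 ± 0.33 (adjusted p = 0.77). Gstz1 was lower without overlap at 7 d as well, by -0.07 ± 0.05 (adjusted p = 0.673). These 3 genes, Ugt2b36 and Ugt2a3 were the genes of the 46 without overlap at 7 d, 2 higher and 3 lower, against 3.05% of all genes higher and 2.30% lower. At 4 h Gstm4 had 772, 764, 824 and 624 with 2BE, against 855, 990.5 and 497 with vehicle. The third vehicle array was the lowest of all, and the difference was -0.01 ± 0.16 with it and -0.31 (adjusted p = 0.0986) without it. No gene of the 46 met the rule of arms without overlap and 0.5 log2 at 7 d, against 0.808% of all genes higher and 0.368% lower.

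Gstp1 had 28427, 28607, 25197 and 24314 with 2BE at 4 h, against 27895, 30195 and 22030.3 with vehicle, and 28120.3, 27162, 26970.1, 28205 and 23487 with 2BE at 7 d, against 25601, 27186, 26519.9 and 29044 with vehicle. The arms overlapped at both times, with differences of 0.01 ± 0.10 and -0.02 ± 0.09. Without the third vehicle array the 4 h difference was -0.13 (adjusted p = 0.536). Gstm1 differed by 0.15 ± 0.22 at 4 h (-0.27, adjusted p = 0.294, without the third vehicle array) and by 0.12 ± 0.20 at 7 d, and Mgst1 by -0.00 ± 0.05 at 7 d. The test of the difference between the 7 d and the 4 h response called 0 of the 46 in the liver, and limma gave 0 an unadjusted p under 0.05. Over all genes 0.0989% were called higher and 0.170% lower in that test.

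Genes around conjugation were read from lists drawn up with earlier results of these data known. Counts in the liver stand beside 3.24% of all genes called higher and 1.27% lower at 4 h, and 0.506% and 0.242% at 7 d. In the liver at 4 h none of 9 measured genes of glutathione supply and none of 9 genes that supply UDP-glucuronate and PAPS was called. Of 10 reporter genes of xenobiotic receptors and Nrf2, 4 were higher: Hmox1, the haem-degrading oxygenase, by 3.24 ± 0.21, the CAR target Cyp2b10 by 2.82 ± 0.45, the sulfiredoxin gene Srxn1 by 0.90 ± 0.15 and the thioredoxin reductase gene Txnrd1 by 0.25 ± 0.07 (log2 differences with SE). Nnmt, which methylates nicotinamide, was higher by 1.64 ± 0.38 and Glyat, the glycine N-acyltransferase, lower by -0.35 ± 0.07, out of 15 other conjugation and detoxification genes. The exporter Abcc1 was higher by 0.35 ± 0.09, as 1 of 16 export and removal genes. Cebpa, a hepatocyte transcription factor, was lower by -0.96 ± 0.16, as 1 of 17 regulators. The list medians were 0.18 for glutathione supply, 0.20 for the reporters and -0.11 for the regulators, against -0.017 over all genes.

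At 7 d Nnmt was higher by 1.66 ± 0.34 (adjusted p = 0.0291) and the PPARa target Cyp4a14 by 3.79 ± 0.72 (adjusted p = 0.0211), and the other pathway genes were not called. Of the 8 macrophage markers 2 were called higher at 7 d, Cd68 and Marco. The 8 summed to 5345 to 7757 with 2BE, against 4030 to 4795 with vehicle. Also called higher at 7 d were 1 of 5 measured erythroid and 1 of 7 measured hepatocyte markers. At 4 h 1 hepatocyte and 1 adipocyte marker were called higher, 1 endothelial marker lower and no macrophage marker. In bulk tissue, here and in the spleen and marrow, fewer or more cells of a type and less or more RNA per cell cannot be told apart. The part of these markers in the liver values of the conjugation genes was not tested.

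At 4 h 1 conjugation gene rose in the spleen and none fell, against 3.30% of all genes called higher and 1.89% lower. This was Gsta3, an alpha-class GST that in mice detoxifies aflatoxin epoxide. It had 137, 141, 194 and 161 with 2BE, against 84.8, 82.9, 104 and 135 with vehicle. All 2BE arrays lay above all vehicle arrays, with the highest vehicle array just below the lowest 2BE array. The difference was 0.65 ± 0.17 (adjusted p = 0.0258), and it was not called without 2BE replicate 3 or 4, without vehicle replicate 1 or 2 (adjusted p from 0.0707 to 0.095), or with the 4 h arrays fitted alone (adjusted p = 0.0842). Without the third vehicle array, which stood apart, it was 0.67 (adjusted p = 0.0353). A second Gsta3 probe set gave 0.45 (adjusted p = 0.0748 over all probe sets).

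Of the markers of fat cells, 1 was called higher with it. The 4 measured adipocyte markers summed to 841 to 7162 on the 2BE spleens at 4 h, against 180 to 512 on the vehicle spleens. In each arm the array with the highest Gsta3 also had the highest sum. Fabp4, an adipocyte fatty acid carrier, was the marker called, higher by 2.81 ± 0.73 (adjusted p = 0.0293). On 2BE replicates 1 and 2 it stood at 799 and 1002, against 133 to 411 with vehicle. On those 2BE arrays Adipoq (13.8 and 18.7), Lep (17.1 and 16.7) and Cidec (11.7 and 12.3) lay within the vehicle range. Lep and Cidec lay below the array median in both arms, and Adipoq in the vehicle arm. At 7 d the sums were 223 to 291 with 2BE, against 276 to 7331 with vehicle, and vehicle arrays with low and high sums had similar Gsta3 values. In the liver at 4 h the same 4 markers summed to 449.5 to 765 with 2BE, against 200.5 to 303 with vehicle. There too 1 of the 4 was called higher, and Adipoq, Lep and Cidec lay below the array median in both arms. The part of fat tissue in the Gsta3 values was not tested.

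**Figure D3:**
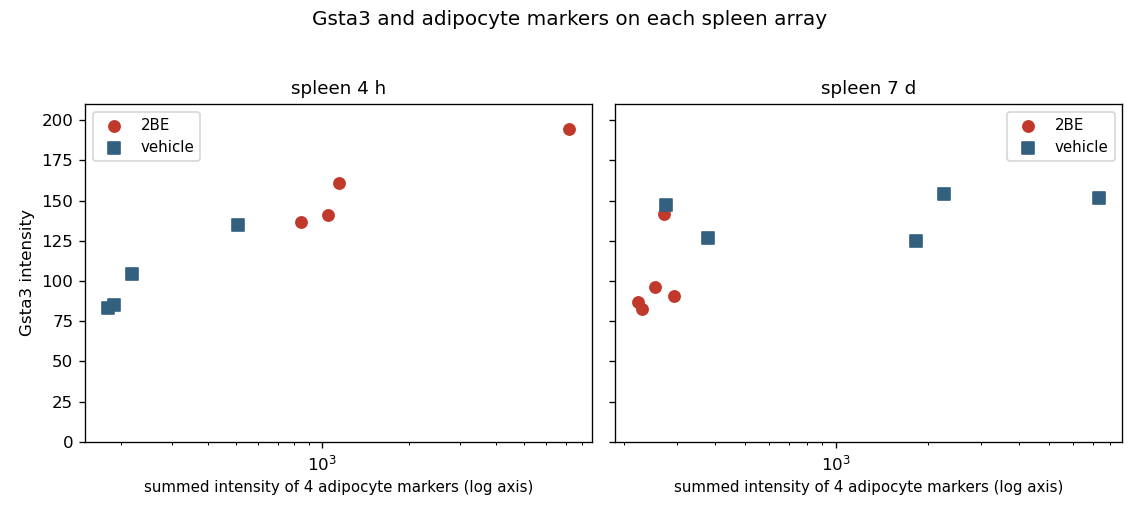
Gsta3 intensity (vertical axis, from 0) against the summed intensity of 4 adipocyte markers (log axis) on each spleen array, with circles for 2BE and squares for vehicle. At 4 h the 2BE arrays (137 to 194) lie right of and above the vehicle arrays (82.9 to 135), and at 7 d the vehicle arrays stay between 125 and 154 over sums from 276 to 7331.

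5 other genes had an unadjusted p under 0.05 in the spleen at 4 h without passing the adjusted threshold, namely Gsta4, Gstm5, Gsto1, Mgst2 and Ugt2b35. Gstm5, a mu-class GST, had 1110.4, 608, 1489.5 and 1546 with 2BE, against 970.4, 466.1, 1069.6 and 468 with vehicle, and Gsta4 had 248, 175, 364 and 374 with 2BE, against 205, 138, 254 and 200.3 with vehicle. Both pairs of arms overlapped. The differences were 0.69 ± 0.29 (adjusted p = 0.201) and 0.50 ± 0.20 (adjusted p = 0.166), and without the second 2BE array, the lowest of its arm, both were called, at 0.99 (adjusted p = 0.0395) and 0.72 (adjusted p = 0.0176). Mgst3, which makes leukotriene C4 and reduces lipid hydroperoxides, had 2422, 2025, 3762 and 4506 with 2BE, against 2683, 1398, 3714 and 1668 with vehicle. It differed by 0.46 with all arrays (adjusted p = 0.47) and by 0.71 (adjusted p = 0.188) without the third vehicle array. 2BE replicates 3 and 4 and vehicle replicates 1 and 3 were the high ones for Mgst3 and Gstm5. The same arrays had the higher erythroid marker sums in their arm, at 30691 and 31976 with 2BE and 31657 and 42927 with vehicle, against 21916 and 23006 on the other 2BE arrays and 23696 and 26122 on the other vehicle arrays.

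In the spleen at 7 d 12 conjugation genes rose and 10 fell, against 32.3% of all genes called higher and 32.4% lower. The called genes comprised 14 of the 20 cytosolic and mitochondrial GSTs (7 higher, 7 lower), all 3 microsomal GSTs (1 higher, 2 lower), 2 of 10 UGTs (both higher) and 3 of 13 SULTs (2 higher, 1 lower). The median log2 difference of the 46 was 0.08, against 0.048 over all genes. limma gave 24 of the 46 an unadjusted p under 0.05. In the spleen at 7 d 27 of the 46 lay below the array median in both arms, and 6 of the called genes were among them. The 27 held all 10 UGTs and every SULT but Sult1a1 and Sult5a1. Among genes above the array median in at least 1 arm, 17 of 19 members and 8866 of 11482 genes were called in the spleen, and 9 of 17 members and 3763 of 11486 genes in the marrow. A gene can pass that filter through the arm where it is high, so nothing is read from these counts.

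Mgst3 rose most. Its intensity was 7266, 7065, 6383, 7002 and 5520.1 with 2BE, against 384, 872, 956, 1026 and 769.8 with vehicle. Every 2BE array lay several-fold above every vehicle array, and the fifth 2BE array was the lowest of its arm. The difference was 3.12 ± 0.28 (adjusted p = 7.37e-08), a fold change of 8.7, and a second probe set gave 1.09 (adjusted p = 3.14e-06 over all probe sets). Gstm5 had 2751, 2293, 1848, 2275 and 2271 with 2BE, against 319.5, 498, 498, 574 and 406 with vehicle. These arms were also far apart, by 2.33 ± 0.26 (adjusted p = 5.41e-07), a fold change of 5.03.

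Gstp3, a pi-class gene, had 378, 350.4, 319, 386 and 356 with 2BE, against 191, 206, 180.4, 199 and 179 with vehicle. The arms were narrow and did not overlap, and the difference was 0.90 ± 0.07 (adjusted p = 2.84e-08). Gsta4 had 314, 303, 265, 331 and 365 with 2BE, against 208, 227, 202, 229 and 222 with vehicle. All 2BE arrays were above all vehicle arrays, by 0.53 ± 0.18 (adjusted p = 0.0136). Gstm3 rose by 0.38 ± 0.09 (adjusted p = 0.00204) and Gstt1, a theta-class gene, by 0.29 ± 0.08 (adjusted p = 0.00394), both without overlap of the arms, although the lowest 2BE array of Gstt1 (412.0) all but met the highest vehicle array (411.8). A second Gstm3 probe set gave 0.09.

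The other 6 genes that rose did so by 0.20 to 0.35 on the log2 scale. They were Gstt4, Ugt2b38, Sult1c1, Sult5a1, Ugt3a1 and Gstm6. All of these but Sult5a1 lay below the array median in both arms. Gstm6 and Ugt3a1 lost their call when any of several single arrays was left out, and with a further quantile normalization the adjusted p was 0.355 for Gstm6, 0.0995 for Ugt3a1 and 0.097 for Sult1c1.

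Among the genes that fell, Gstm2, a mu-class GST, had 94.7, 83.8, 102, 72.4 and 121 with 2BE, against 187, 241, 176, 189 and 197 with vehicle. The highest 2BE array, the fifth, stayed below the lowest vehicle array, and the difference was -1.07 ± 0.12 (adjusted p = 4.34e-07). Mgst2, which like Mgst3 can make leukotriene C4, had 157, 130.0, 172, 182 and 197 with 2BE, against 409.5, 329.7, 349, 324 and 325 with vehicle. The arms did not overlap, and the difference was -1.05 ± 0.13 (adjusted p = 1.17e-06). Gstk1 had 129, 110.4, 144, 153 and 185 with 2BE, against 279, 262, 248, 245 and 270.2 with vehicle. Here too the arms stood apart, with a difference of -0.87 ± 0.11 (adjusted p = 1.4e-06).

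Mgst1 had 727, 746, 959, 781 and 1198 with 2BE, against 1549.6, 1997, 1486, 1558 and 1508 with vehicle. The arms did not overlap, and the fifth 2BE array came nearest to the vehicle arrays. The difference was -0.89 ± 0.18 (adjusted p = 0.000312), whereas a second probe set of the gene gave 0.05. Gstm1 had 242, 245, 269.5, 266 and 439 with 2BE, against 462, 498, 426, 453 and 484 with vehicle. The fifth 2BE array alone lay within the vehicle range. The difference was -0.70 ± 0.17 (adjusted p = 0.00123), without that array it was -0.86, and the other Gstm1 probe sets gave -0.66, -0.09 and 0.11.

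Gsta3, which was higher with 2BE at 4 h, had 82.8, 90.8, 96.0, 87.1 and 142 with 2BE at 7 d, against 147, 151, 127, 154 and 125 with vehicle. Again only the fifth 2BE array overlapped the vehicle arm. The difference was -0.52 ± 0.15 (adjusted p = 0.00523), and without that array it was -0.65. Gstp1 fell by 0.24 ± 0.08 (adjusted p = 0.0104), Gstt2 by 0.23 ± 0.08 (adjusted p = 0.0126) and Gstt3 by 0.23 ± 0.07 (adjusted p = 0.00835). Gstt3 lay below the array median in both arms. Sult1a1 fell by 0.44 ± 0.19 (adjusted p = 0.0464), a call lost in 8 of the 10 fits that left out 1 array and with the replicate number as a block (adjusted p = 0.0593). Without the fifth 2BE array 14 of the 46 genes were called higher and 10 lower.

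**Figure D4:**
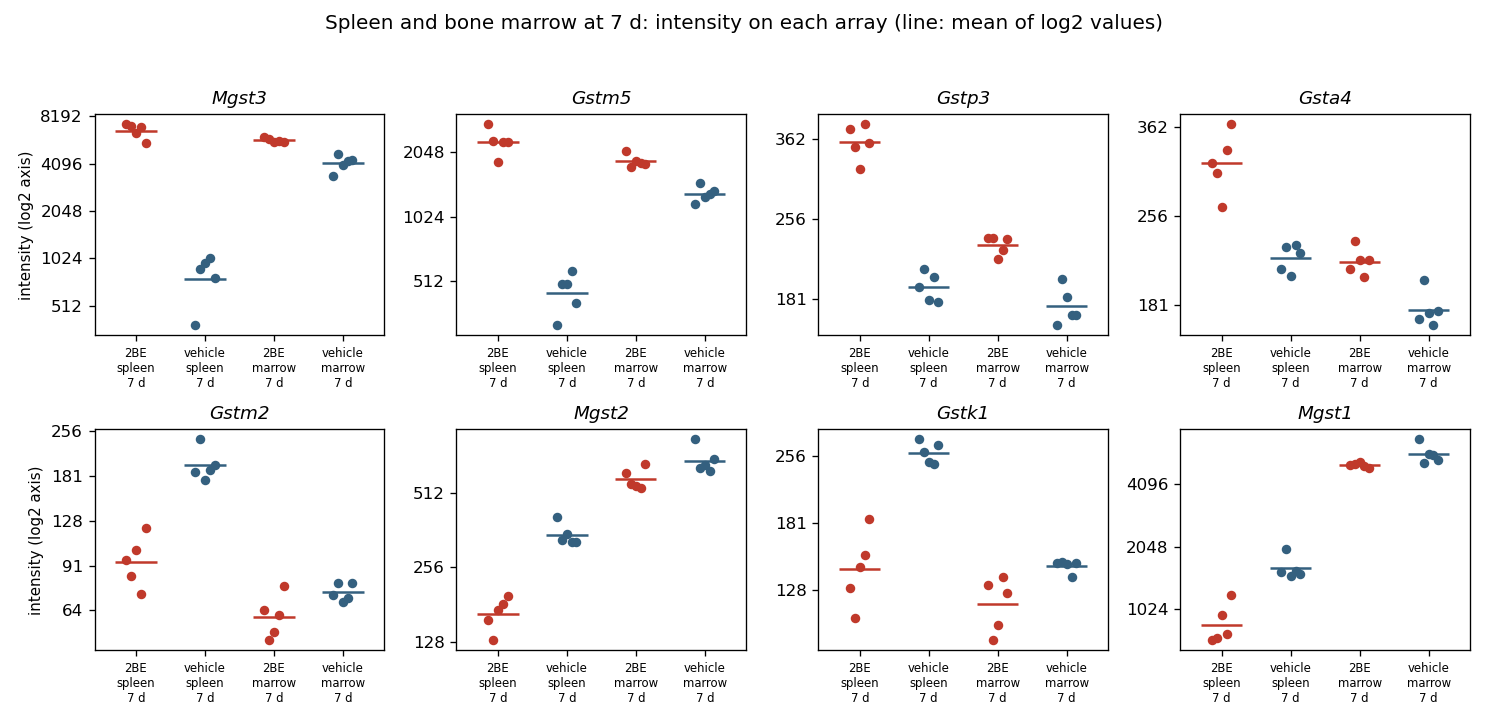
Intensity (log2 axis) of 8 conjugation enzyme genes on each spleen and marrow array, 2BE left of vehicle in each set, with lines at the mean of log2 values. In the spleen at 7 d the Mgst3 arrays lie at 5520 to 7266 with 2BE and 384 to 1026 with vehicle, and the Gstm2, Mgst2, Gstk1 and Mgst1 arrays lie lower with 2BE.

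Cell markers moved with these genes. The 5 measured erythroid markers of the spleen at 7 d summed to 56963 to 69700 with 2BE, against 7928 to 20192 with vehicle, and all 5 were called higher. The lowest 2BE sum was that of the fifth array, and the lowest vehicle sum that of the first, which also had the lowest Mgst3 and Gstm5 of the vehicle arm. All 5 B cell markers were called lower (5624 to 14660 with 2BE, against 28357 to 33194 with vehicle), as were all 5 T cell markers (1588 to 3156 with 2BE, against 5748 to 6631 with vehicle) and all 5 endothelial markers (2299 to 2968 with 2BE, against 4478 to 5782 with vehicle). The part of these cells in the values of the conjugation genes was not tested.

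Genes that lie next to each other in the genome, by RefSeq order, did not all move one way. In the spleen at 7 d 32.3% of all genes were called higher and 32.4% lower. Calls in both directions were thus common, and nothing is read from the mix within a cluster. Of the 7 Gstm genes of mouse chromosome 3, Gstm5, Gstm6 and Gstm3 rose in the spleen at 7 d, Gstm2 and Gstm1 fell, and Gstm7 and Gstm4 were not called. Of the 4 Gstt genes, Gstt1 and Gstt4 rose and Gstt2 and Gstt3 fell. Gstm6, Gstm7, Gstt3 and Gstt4 lay below the array median in both arms. The second probe set of Gstm3 and some of the other probe sets of Gstm1 gave much smaller differences, as given above. Of the adjoining Gstp genes, Gstp3 rose and Gstp1 fell. With a further quantile normalization Gstm6 (adjusted p = 0.355) and Gstt2 (adjusted p = 0.27) were not called. Of the 11 genes of the Ugt2 and Sult1 cluster, 1 was called (Ugt2b38, higher). All 11 lay below the array median in both arms, so changes in them could be missed. Probes of such similar genes may share signal, and those of Gstm1, Gsto1 and Sult6b1 carry the array design's mark for possible cross-hybridization. The probe sets of Gstm3 and Ugt2b34 carry its mark for probes shared by several transcripts.

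**Figure D5:**
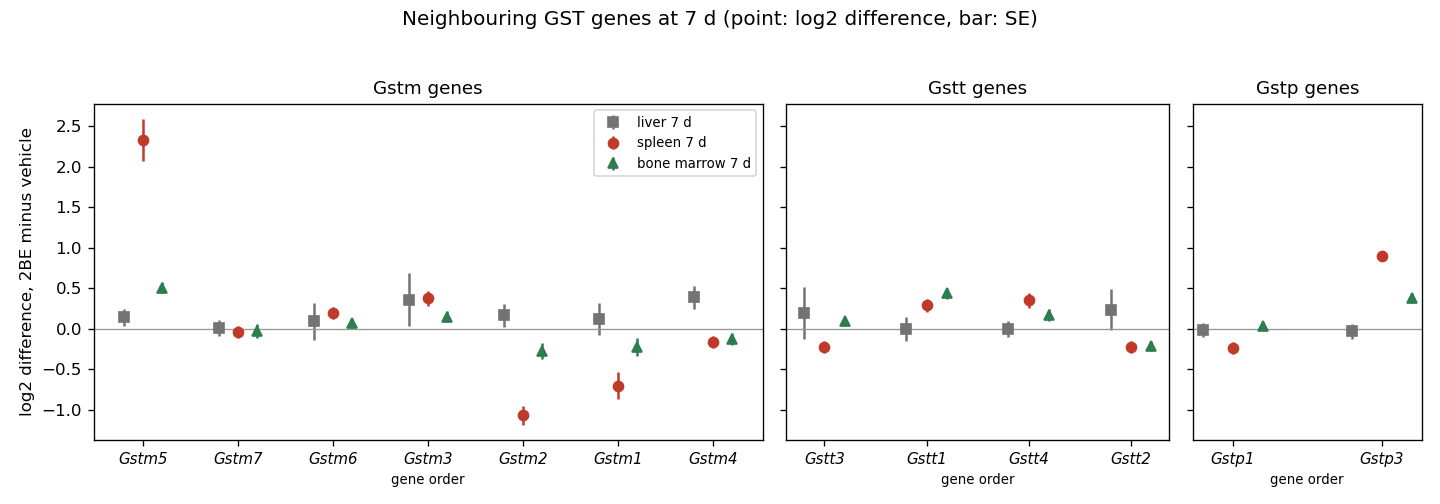
Log2 difference (2BE minus vehicle, bars of 1 SE) of the Gstm, Gstt and Gstp genes in RefSeq order along their clusters (horizontal axis, not to distance), in the liver, spleen and marrow at 7 d. In the spleen Gstm5 stands at 2.33 and Gstm2 at -1.07 within the same cluster, and Gstp3 at 0.90 beside Gstp1 at -0.24.

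In the bone marrow at 7 d 6 conjugation genes rose and 2 fell, against 9.47% of all genes called higher and 10.8% lower. limma gave 16 of the 46 an unadjusted p under 0.05. All 8 were GSTs, and none of the 10 UGTs or 13 SULTs was called. All 10 UGTs and every SULT but Sult1a1 and Sult5a1 lay below the array median in both arms, so a change in them could be missed. The median log2 difference was -0.005, against 0.006 over all genes, and all 46 intervals lay within 1 log2 unit of 0.

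Gstm5 had 2073, 1752, 1869, 1821 and 1795 with 2BE, against 1177, 1464, 1266, 1299.8 and 1345 with vehicle. The arms did not overlap, and the difference was 0.51 ± 0.07 (adjusted p = 0.000126). Mgst3 had 6078, 5889, 5609.7, 5743 and 5620.5 with 2BE, against 3432, 4748, 4011, 4268 and 4329 with vehicle. All 2BE arrays were higher, by 0.48 ± 0.07 (adjusted p = 0.000437), and a second probe set gave 0.37 (adjusted p = 0.0122 over all probe sets). Gstt1 had 369.9, 355, 389, 431 and 348 with 2BE, against 276, 315, 262, 265 and 277 with vehicle. These arms stood apart as well, by 0.44 ± 0.07 (adjusted p = 0.00055).

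Gstp3 had 236, 236, 215, 224 and 235 with 2BE, against 162, 197, 183, 169 and 169 with vehicle. The arms did not overlap, with a difference of 0.38 ± 0.06 (adjusted p = 0.000543). Gsta4 rose by 0.27 ± 0.06 (adjusted p = 0.00571), with its lowest 2BE array just above its highest vehicle array. Gsto1, an omega-class GST that reduces dehydroascorbate, had 1194, 1167, 1524, 1496 and 1519 with 2BE, against 1302, 1118, 1091, 1068 and 959.7 with vehicle. Its arms overlapped, the difference was 0.31 ± 0.10 (adjusted p = 0.0324), and a second probe set gave 0.02. Gstk1 differed by -0.28 ± 0.08 (adjusted p = 0.0268) and Gstt2 by -0.22 ± 0.06 (adjusted p = 0.0279), both lower with 2BE. The calls of Gsto1, Gstk1 and Gstt2 were lost when any of several single arrays was left out.

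Of the 8 genes called in the marrow, 7 were also called in the spleen at 7 d, all in the same direction (Gsta4, Gstk1, Gstm5, Gstp3, Gstt1, Gstt2 and Mgst3). They are 87.5% of the marrow list and 31.8% of the spleen list. Over all genes 3252 of the 3689 called in the marrow were also called in the spleen at 7 d (88.2% of the marrow list and 27.6% of the spleen list), 3161 of them in the same direction, so the share among the conjugation genes was close to that of all genes. Erythroid markers summed to 51404 to 55714 in 2BE marrow, against 36770 to 45877 in vehicle marrow, B cell markers to 1866 to 3170 with 2BE, against 6476 to 8161 with vehicle, and fibroblast markers to 3540 to 13234 with 2BE, against 15804 to 21616 with vehicle. The fifth 2BE marrow had the highest Gstm1 of its arm and the lowest erythroid sum. It also had the highest sums of its arm for fibroblasts, bone cells, macrophages, neutrophils, adipocytes and B cells. The fibroblast and bone cell lists share Col1a1. Without the fifth 2BE marrow Gstm1 differed by -0.36 (adjusted p = 0.00106), and with it by -0.22 ± 0.12 (adjusted p = 0.201). The part of these cells was not tested.

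The responses were compared directly. In the spleen the difference between the 7 d and the 4 h response was called for 10 conjugation genes upward and 9 downward, against 25.5% and 26.0% of all genes. It was 2.66 for Mgst3, 1.64 for Gstm5, -1.17 for Gsta3 and -1.28 for Gstm2 on the log2 scale. The liver response at 7 d minus the spleen response was called for 9 genes upward and 9 downward, against 28.7% and 25.7% of all genes. It was -3.15 for Mgst3, -2.19 for Gstm5, 1.23 for Gstm2 and 0.55 for Gstm4. At 4 h 0 of the 46 were called between liver and spleen, against 0.857% of all genes upward and 0.973% downward, and limma gave 4 an unadjusted p under 0.05.

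Glutathione supply genes were called in the spleen and marrow. Counts of listed genes at 7 d stand beside 32.3% of all genes called higher and 32.4% lower in the spleen, and 9.47% and 10.8% in the marrow. Those in the spleen at 4 h stand beside 3.30% higher and 1.89% lower. Gclc, the catalytic subunit of the rate-limiting enzyme of glutathione synthesis, rose in the spleen at 4 h by 0.93 ± 0.14 and the cystine carrier Slc7a11 by 1.06 ± 0.22 (log2, SE), as 2 of 9 genes. At 7 d 4 of the 9 rose and 2 fell, a share called close to that of all genes: Gclm, the modifier subunit, rose by 2.27 ± 0.16, Gclc by 1.57 ± 0.12, the glutathione synthetase gene Gss by 0.46 ± 0.08 and Cbs by 0.24 ± 0.08, while Slc7a11 was lower by -1.07 ± 0.20 and Pgd by -0.98 ± 0.19. In the marrow Gss, Gclm and Gclc rose by 0.31, 0.29 and 0.24. Of the 9 genes that supply UDP-glucuronate and PAPS, 5 fell and 3 rose in the spleen at 7 d. Ugdh, which makes UDP-glucuronate, was lower by -0.84 ± 0.08, the PAPS synthase gene Papss2 by -1.10 ± 0.12, and the sulfate carrier gene Slc26a1 was higher by 1.95 ± 0.22. In the marrow 3 fell and 1 rose, with Ugdh at -0.23.

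Among the other genes of the pathway, the quinone reductase gene Nqo1 rose by 1.88 ± 0.18 in the spleen at 7 d and by 0.49 ± 0.08 in the marrow, and the exporter gene Abcg2 by 2.32 ± 0.20 and 0.65 ± 0.09. Of 15 other conjugation and detoxification genes 6 rose and 1 fell in the spleen at 7 d, and 3 rose and 1 fell in the marrow. Of 16 export and removal genes 2 rose and 4 fell in the spleen at 7 d, and 1 rose in the marrow. Of the 17 regulators, Maff, Bach1 and Nfe2l2, which encodes Nrf2, rose in the spleen at 4 h by 1.97, 0.62 and 0.42. At 7 d 5 rose and 5 fell in the spleen, and in the marrow Ahr rose by 0.52. Of the 10 reporter genes, Srxn1, Txnrd1 and Gclc rose in the spleen at 4 h (1.77, 1.10 and 0.93) and 5 rose at 7 d. In the marrow 3 rose, while Hmox1 was lower by -0.84 ± 0.09.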

How the data were processed

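RNA of liver, spleen and bone marrow was measured on 44 one-colour Affymetrix arrays in 10 groups. The deposited values are intensities on a linear scale (6.16 to 47797.8) that the authors obtained with RMA, per the submitters' processing notes, which includes background correction and quantile normalization and compresses low values. Depth has no meaning for arrays, and their number limits the precision.

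Of 45101 probe sets, 34945 had 1 symbol in GEO's platform annotation, 932 had several and 9160 none. Control probe sets (64) were left out. Where a gene had several, the brightest on average across the 44 arrays stood for it, which gave 18193 genes. Values were tested as log2(value + 1) with limma (version 3.58.1, under R version 4.3.3), by lmFit (on the groups of 1 tissue, or of both tissues at 1 time for liver against spleen, and then eBayes), two-sided, with Benjamini-Hochberg adjustment over all genes. The script was tested on simulated data. Members and lists were chosen with earlier results of these data known. The genes described with values are those called in a comparison, those in the liver whose arms did not overlap with a log2 difference of at least 0.5, and the 5 with the highest vehicle mean in each tissue. Others are named as examples chosen after their values were seen.

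Replicate numbers in the titles were not used to pair the arms in the main fits. A block on these numbers was run as an alternative in every comparison. It joined arrays within 1 tissue and time only. Liver and spleen arrays were thus fitted as independent, and the titles do not say whether they come from the same mice. In the liver at 4 h every same-numbered pair of arrays deviated together (correlations 0.134, 0.283 and 0.142). The other sets held pairs of both signs, from -0.382 to 0.545 in the spleen at 4 h. With the block 0 conjugation genes were called in the liver at 4 h, as without it. Alternatives covered the pseudocount, low values, quantile normalization, all probe sets, the variance model, array weights, the arrays fitted, the block and each array left out.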

Additional observations from a re-analysis of the deposited data

Results flagged for a closer look

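Single arrays far from the rest of their group, by Dixon's criterion, were found in 12 of 103 sets of a gene in a group, where chance gives about 1 in 20. The vehicle livers at 4 h, with 3 arrays, were too few to be tested in this way. Values are log2(intensity + 1). The fourth 2BE liver at 4 h stood apart for Mgst1 (14.56), Sult1e1 (6.11) and Ugt2b36 (13.27). Of the 2BE livers at 7 d the third stood apart for Mgst1 (14.47) and the fifth for Gstp1 (14.52). Among spleens at 7 d the fifth 2BE array stood apart for Gsta3 (7.15) and Gstm1 (8.78), the second vehicle array for Mgst1 (10.96) and Ugt3a1 (6.69), and the fourth vehicle array for Gstt1 (8.45). In the marrow the fifth 2BE array stood apart for Gstm1 (10.49) and the fourth vehicle array for Gstk1 (7.10).

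The spleen response differed between the times, by limma's test of the 7 d minus the 4 h log2 difference, for 19 genes. The difference was positive for Mgst3 (2.66), Gstm5 (1.64), Gstp3 (0.79), Gstm3 (0.58), Gstt4 (0.46), Ugt2b38 (0.46), Ugt3a2 (0.46), Ugt2b1 (0.42), Ugt3a1 (0.36) and Gstm6 (0.29). It was negative for Gstm2 (-1.28), Gsta3 (-1.17), Gstk1 (-0.91), Mgst2 (-0.75), Sult1a1 (-0.73), Gstm1 (-0.72), Mgst1 (-0.69), Gstp1 (-0.35) and Gstt2 (-0.33). For 10 of the 19 the call was kept under every alternative run. It was lost in 14 of 24 alternatives for Ugt3a1, 13 of 24 for Ugt3a2, 12 of 24 for Gstm6, 11 of 25 for Mgst1 and 10 of 25 for Sult1a1, and in 1 to 3 for Gstm1, Ugt2b1, Gstt2 and Gstt4. With the mean of all probe sets of a gene, Gstm1 was at -0.31 (adjusted p = 0.13) and Mgst1 at -0.31 (adjusted p = 0.0927).

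The response at 7 d differed between liver and spleen for 18 genes. The liver minus the spleen log2 difference was positive for Gstm2 (1.23), Mgst2 (1.00), Mgst1 (0.89), Gstk1 (0.85), Gstm1 (0.83), Sult1a1 (0.71), Gstm4 (0.55), Gsta3 (0.47) and Gstt2 (0.47). It was negative for Mgst3 (-3.15), Gstm5 (-2.19), Gstp3 (-0.93), Gsta4 (-0.70), Ugt3a1 (-0.55), Ugt2a3 (-0.37), Gstt4 (-0.35), Gstt1 (-0.29) and Ugt3a2 (-0.28). For 14 of the 18 the call was kept under every alternative run. It was lost in 15 of 26 alternatives for Ugt3a2, 10 of 26 for Gstt1 (the replicate block among them), 10 of 25 for Gstt4 and 1 of 26 for Gstt2.

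A probe set annotated to both Ugt2a1 and Ugt2a2, and so outside the 46 genes, was higher with 2BE in the spleen at 7 d by 0.28 on the log2 scale, with mean intensities of 23.4 with 2BE and 19.2 with vehicle.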

How the results depend on the processing

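The number of conjugation genes called depended little on the settings in most comparisons. The count for the liver at 4 h was 0, and 0 to 1 with 1 array left out (Gstm3, without the second vehicle array, or Sult1e1, without the fourth 2BE array). In the liver at 7 d it was 0, and 1 (Gstm4) with the 7 d arrays fitted alone. For the spleen at 4 h it was 1, and 0 with the 4 h arrays alone, 2 with the replicate number as a block and 0 to 3 with 1 array left out. In the marrow it was 8, and 5 to 10 with 1 array left out, the fewest without the third 2BE or the third vehicle array. The liver difference between times was called for 0 genes, and for 0 to 1 with 1 array left out.

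Over the 94 gene and comparison pairs described, 68 were called. Of these 68, 17 lost the call with quantile normalization, 5 with the replicate block, 17 in at least 1 fit without 1 array and 22 under at least 1 of the alternatives. Signs turned only in uncalled pairs. For the liver at 4 h, leaving out 1 array gave -0.27 to 0.49 for Gstm1, -0.02 to 1.26 for Gstm3 (called at the upper end), -0.13 to 0.10 for Gstp1, -0.29 to 0.04 for Ugt2b36 and -0.26 to 0.10 for Ugt2b5. Array weights turned Gstm1 to -0.03 and Gstp1 to -0.07, quantile normalization turned Gstp1 to -0.02, and the replicate block turned Ugt2b5 to 0.10. For the liver at 7 d, leaving out 1 array gave -0.04 to 0.03 for Gstp1 and -0.03 to 0.02 for Mgst1. The block turned Gstp1 to 0.03, quantile normalization turned Mgst1 to 0.01 and the mean over its probe sets turned it to 0.10. For Gsto1 in the spleen at 7 d, leaving out 1 array gave -0.01 to 0.10. The causes were not tested.

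Over all genes, 821 were called in the liver at 4 h, 470 with the block and 165 with the 4 h arrays alone. At 7 d 136 were called in the liver, 405 with array weights and 248 with the 7 d arrays alone, and in the spleen at 4 h 944 and 502 with the 4 h arrays alone. With quantile normalization 60.6% of the calls in the liver at 4 h were higher, against 71.9% without it, and 56.4% against 67.6% at 7 d. Signals below the array median limit what can be said of 10 of the 46 genes in the liver, 27 in the spleen and 29 in the marrow.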

Other observations

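The Ugt1a genes, which glucuronidate bilirubin and many drugs, share their last exons, and 3 probe sets name all of them together. Their mean intensities in the liver at 4 h were 8379, 13263 and 8525 with 2BE, against 8551, 13283 and 9044 with vehicle. The log2 differences, taken between means of log2 values, were -0.01, 0.01 and -0.08 at 4 h and -0.04, -0.05 and -0.05 at 7 d, and limma called none of them. In the spleen at 7 d the differences were 0.08, 0.06 and 0.00, and in the marrow 0.09, 0.04 and 0.20, again without a call.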
